A study of Mus musculus with 64 samples.

Results

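The genes of glycolysis, glycogen turnover and the pentose phosphate pathway were followed in BAT, a depot of brown fat, and eWAT, the white fat of the epididymis, in mice whose adipocytes lack Nampt, the rate-limiting enzyme of NAD+ salvage. The members were 40 genes taken by symbol from a list of these pathways, of 52636 genes listed, and all 40 passed the filter on low counts that kept 20249 genes. The 64 RNA-seq libraries came from male mice of a line with loxP sites around exon 3 of Nampt. Fat-specific Nampt knockout (FANKO) mice also carried Adiponectin-Cre, which acts in mature adipocytes of both depots and leaves the other cells of the tissue unedited. Wildtype (WT) controls were Cre-negative littermates that carry the same floxed line. Mice were housed at room temperature with free access to food and water, and were 2 to 4 months old, the range given for the mice of the study. Each combination of depot and genotype held 16 samples, 4 at each of zeitgeber time (ZT, hours after lights on) 6, 10, 18 and 22, the first pair in the light and the second in the dark. Levels are CPM, the counts of a gene scaled to the library's total with edgeR's TMM factors.

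Glycolysis splits glucose into pyruvate and yields ATP without oxygen. Pyruvate then either leaves as lactate or is oxidised inside the mitochondrion by the pyruvate dehydrogenase complex, which the pyruvate dehydrogenase kinases switch off. Glycogen stores glucose as a branched polymer, and the pentose phosphate pathway draws on glucose 6-phosphate for NADPH, the reductant of fatty acid synthesis. Glycolysis needs NAD+ at the glyceraldehyde 3-phosphate dehydrogenase step, and in fat cells glucose also supplies carbon for lipid. Brown fat takes up much glucose when it makes heat.

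Total counts ran from 6117343 to 30544847 per library. Nampt fell in both depots, from a lowest, median and highest of 479, 702 and 1454 CPM in WT BAT to 109, 143 and 186 CPM in FANKO BAT, and from 112, 149 and 310 CPM in WT eWAT to 101, 114 and 131 CPM in FANKO eWAT. The log2 fold changes of Nampt were -2.31 ± 0.07 (SE; adjusted p = 1.09e-36) in BAT and -0.50 ± 0.07 (SE; adjusted p = 4.67e-09) in eWAT, and the ranges overlapped in eWAT only. Adipocyte markers (Adipoq, Plin1, Fabp4, Cidec and Lipe) were abundant in every library, and the summed brown adipocyte markers lay at 4942 to 10872 CPM in WT BAT against 12.2 to 36.7 CPM in WT eWAT. FANKO eWAT lay wholly above WT eWAT for the brown markers, at 49.0 to 106 CPM with 2 of 6 called higher and 1 lower. Of the 5 adipocyte markers 1 was called higher and 3 lower there, with sums of 10485 to 17644 CPM in WT and 11602 to 16950 CPM in FANKO. In FANKO BAT the sums stood lower, at 1312 to 3606 CPM for the 6 brown markers. The 5 adipocyte markers summed to 4600 to 8089 CPM there, against 10047 to 13158 CPM in WT BAT. Called lower in FANKO BAT were 3 of the 6 brown markers, with 0 called higher, and all 5 adipocyte markers. The 8 macrophage and other myeloid markers went the other way in BAT, from 100.4 to 187 CPM in WT to 749 to 1784 CPM in FANKO, with all 8 called higher. In eWAT they summed to 603 to 935 CPM in WT and 590 to 1161 CPM in FANKO, with 4 of 8 called higher and 0 lower. The part of these marker shifts in the results on either depot was not tested, and in bulk tissue fewer cells of a type and less RNA per cell cannot be told apart. Some libraries stood apart for the members. In WT eWAT ZT 18 replicate 4, the median member lay at -0.43 (log2 from the mean of WT eWAT), and 35 of 40 members were below that mean, while the other 3 libraries of its time point lay at 0.34, 0.20 and 0.54. Other libraries with a low median member were WT eWAT ZT 6 replicate 2 (-0.54, 32 of 40 below) and FANKO BAT ZT 6 replicates 1 and 4 (-0.38 and -0.39). FANKO BAT ZT 18 replicate 4 lay at -0.32, and WT BAT ZT 18 replicate 4 and WT BAT ZT 6 replicate 1 both at -0.30. Of all these, WT eWAT ZT 18 replicate 4 and WT BAT ZT 18 replicate 4 were each also left out alone. The rest were left out only along with other libraries. In 7 BAT libraries, 4 WT and 3 FANKO, Ckm, the creatine kinase of muscle fibres, was over 10 CPM, and results that rest on these libraries are given with and without them.

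The promoters of Ppp1r3c, Slc16a1 and Pfkfb3 are shown because they are the rhythmic members of both depots in WT that hold the motif searched. Of the other members with a rhythm call or a difference of rhythm, Pdk2, rhythmic in WT eWAT only, holds it. Hk2, Pfkp, Gys1, Pygb and Pfkfb1 do not. The letters CACGTG, the canonical E-box that clock factors are known to bind, were searched in the 250 bases before each RefSeq start site (the motif is its own reverse complement, so both strands read alike). It was present for 6 of 40 members (15%: Ldha, Pdk2, Pfkfb3, Pfkm, Ppp1r3c and Slc16a1) and for 6.86% of 27025 genes searched. Some genes have several start sites. By window, it was present in 6 of 59 (10.2%) for the members and in 6.02% of all 32851. The sequences are from RefSeq on GRCm38.p6, given 5′ to 3′ on the gene's strand with the motif in capitals and without bases that lie in annotated exons. The window of Ppp1r3c is chr19:36736654-36736854 on the minus strand, that of Slc16a1 chr3:104638414-104638663 on the plus strand and that of Pfkfb3 chr2:11502102-11502340 on the minus strand, and the centre of the motif lies 101, 197 and 50 bases before the start. The start site used for Pfkfb3 lies inside the gene as annotated, which spans chr2:11471433-11554077, and is not its outermost start. A match describes the letters in the window and is no measured binding site.
Ppp1r3c: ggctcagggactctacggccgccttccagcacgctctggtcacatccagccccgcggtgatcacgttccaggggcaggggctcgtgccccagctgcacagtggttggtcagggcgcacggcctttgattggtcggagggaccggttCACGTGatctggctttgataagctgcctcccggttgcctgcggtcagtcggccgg
Slc16a1: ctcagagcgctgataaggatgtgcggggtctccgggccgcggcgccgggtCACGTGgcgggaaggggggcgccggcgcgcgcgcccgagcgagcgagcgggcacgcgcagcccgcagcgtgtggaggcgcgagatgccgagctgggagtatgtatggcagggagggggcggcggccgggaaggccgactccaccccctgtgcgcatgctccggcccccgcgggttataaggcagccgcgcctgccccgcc
Pfkfb3: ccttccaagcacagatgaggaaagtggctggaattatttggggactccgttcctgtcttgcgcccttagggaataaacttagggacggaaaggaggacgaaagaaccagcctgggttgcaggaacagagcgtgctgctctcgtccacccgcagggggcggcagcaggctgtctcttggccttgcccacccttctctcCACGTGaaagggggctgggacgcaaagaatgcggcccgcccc

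To ask how loss of Nampt in adipocytes moved these genes, FANKO was compared with WT over all 4 time points in each depot, with edgeR's quasi-likelihood test, Benjamini-Hochberg adjustment over all genes tested and a threshold of 0.01. The members went mostly down in BAT and mostly up in eWAT. In BAT, 22 of 40 members were lower in FANKO and 8 were higher, against 33.9% of all genes lower and 33.1% higher. In eWAT, 32 members were higher and 4 lower, against 27.6% of all genes higher and 22.8% lower. The median log2 fold change of the members was -0.48 in BAT beside 0.00 over all genes, and 0.92 in eWAT beside -0.02. The BAT split depended on scaling: with library size alone it was 16 higher and 11 lower, and the median of all genes then moved from 0.00 to 0.58, but the members lay 0.49 below that median, close to the 0.48 with TMM. Under that scaling 8 members without a call (Aldoa, Eno1, Eno3, G6pdx, Gapdh, Pfkl, Pfkp and Pkm) were called higher in FANKO BAT, and the falls of 11 (Aldoc, Dlat, Hk2, Ldha, Pdhb, Pgk1, Pygb, Pygl, Slc16a1, Taldo1 and Tpi1) lost their call. The directions given below are with TMM, that is, against the typical gene. The effect of genotype itself differed between depots for 37 members, of which 33 had the lower effect in BAT and 4 (Hk1, Hk3, Slc16a3 and Pdk3) the higher, against 32.1% and 32.2% of all genes.

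**Figure D1:**
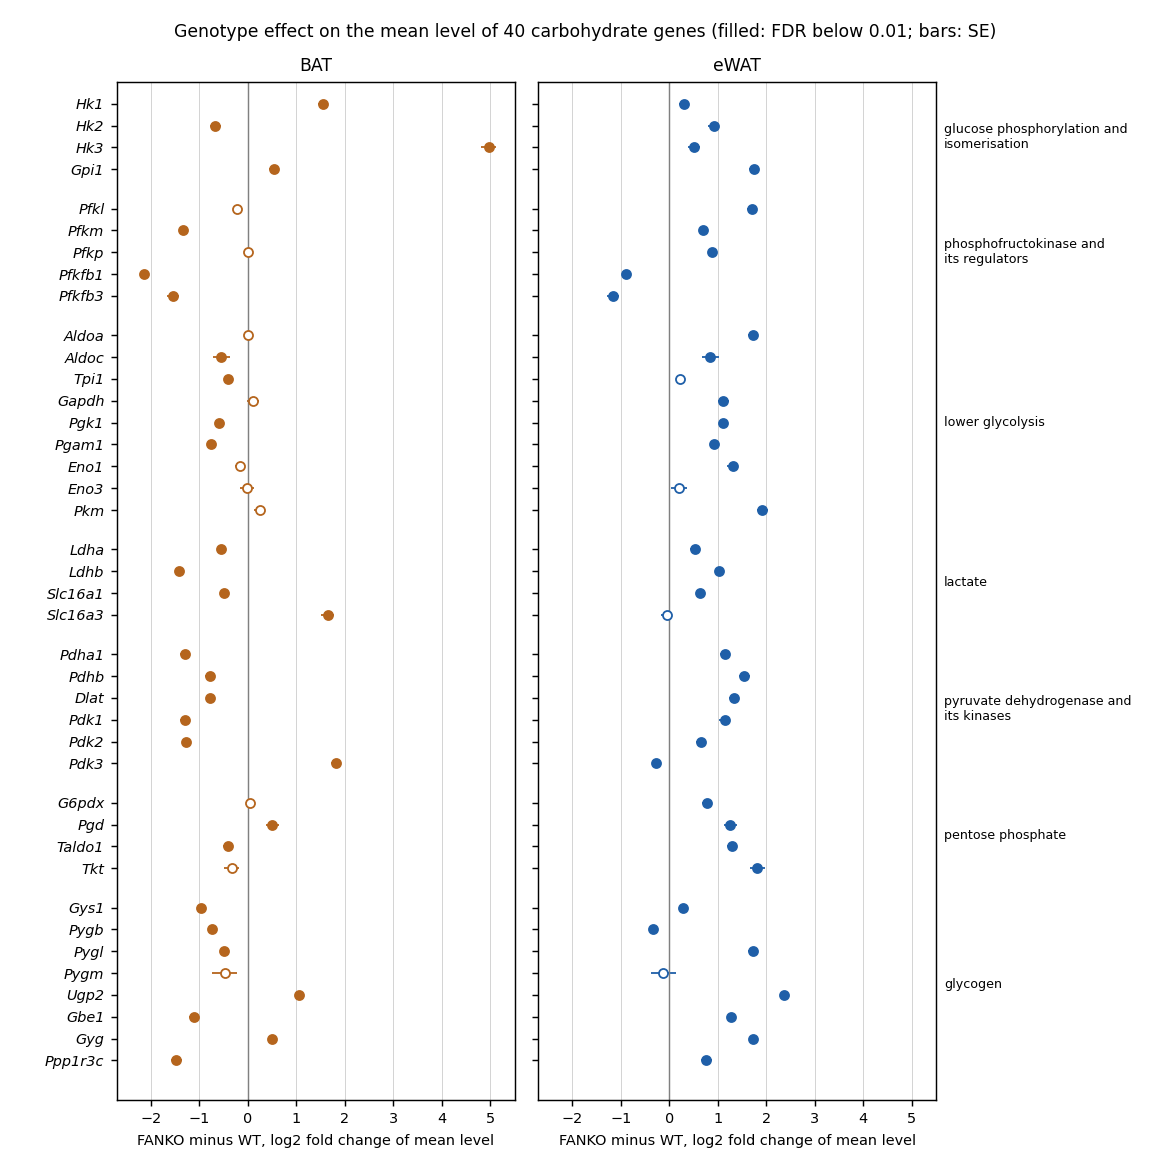
Log2 fold change of FANKO over WT (x axis, with SE) for each of the 40 members (y axis, by role) in BAT and eWAT; filled points passed an adjusted p of 0.01. Most members lie left of 0 in BAT and right of 0 in eWAT, and Hk3 lies farthest right in BAT.

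Between depots, WT BAT held more of these transcripts than WT eWAT: 33 members were higher in BAT and 5 lower, against 32.7% and 41.1% of all genes, with a median log2 difference of 1.95 beside -0.11. The 5 lower were Hk3, Slc16a3, Pfkfb3, Pdk3 and Pygb. In FANKO the median depot difference of the members was 0.41 beside -0.01 over all genes, given with no test. The widest gap was that of Ldhb, the heart-type lactate dehydrogenase subunit, at a log2 of 3.44 (10.8-fold higher in BAT), and the widest the other way that of Pdk3 (-2.97). Aldoc and Pfkfb1 did not pass the threshold between depots (adjusted p = 0.0264 and 0.0451). Divided by exon length, Aldoa, the main aldolase of glycolysis, stood highest in WT BAT with a median of 1595 CPM per kb, and Hk3 lowest with 0.23 CPM per kb.

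Of the genes that trap glucose in the cell, Hk3, a hexokinase known from myeloid cells, changed the most in BAT. Its levels in WT BAT were 0.437, 0.848 and 1.69 CPM (lowest, median and highest of 16) and in FANKO BAT 17.4, 26.4 and 58.4 CPM. The groups were far apart, and the log2 fold change was 4.97 ± 0.15 (SE; adjusted p = 2.56e-36). In eWAT, Hk3 lay at 3.47, 5.31 and 7.17 CPM in WT and 4.60, 7.28 and 11.65 CPM in FANKO, where it rose by a log2 of 0.51 ± 0.12 (SE; adjusted p = 0.000257) with overlapping ranges. This call was lost with library size alone (0.26, adjusted p = 0.0801) and without replicate 3 (0.41, adjusted p = 0.0154). Ptprc and Cd68, which mark leukocytes and macrophages, moved in the same libraries, with BAT medians of 13.7 and 3.23 CPM in WT and 424 and 78.1 CPM in FANKO; their part in the rise of Hk3 was not tested. Hk1, the broadly expressed hexokinase, rose in BAT by a log2 of 1.54 ± 0.10 (adjusted p = 8.8e-22), from 22.2 to 54.3 CPM in WT to 72.6 to 120.4 CPM in FANKO without overlap, and in eWAT by 0.30 (adjusted p = 0.00584), a call lost in most alternatives that left out samples or changed the filter. Hk2, the insulin-sensitive hexokinase of fat and muscle, fell in BAT by 0.67 on the log2 scale (adjusted p = 3.08e-07) and rose in eWAT (log2 fold change 0.92, adjusted p = 3.14e-10). Hk2 still made up most of the 3 hexokinases by CPM per kb, with a median share of 97.6% (92.2 to 98.6%) in WT BAT and 83.5% (70.0 to 89.4%) in FANKO BAT, and the 2 ranges did not overlap. Gpi1, which turns glucose 6-phosphate into fructose 6-phosphate, lay at 99.1, 128 and 177 CPM in WT eWAT and 376, 421 and 544 CPM in FANKO eWAT. It rose 3.34-fold there (log2 fold change 1.74 ± 0.09, SE; adjusted p = 4.7e-24) and by a smaller log2 of 0.53 in BAT (adjusted p = 3.42e-07).

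**Figure D2:**
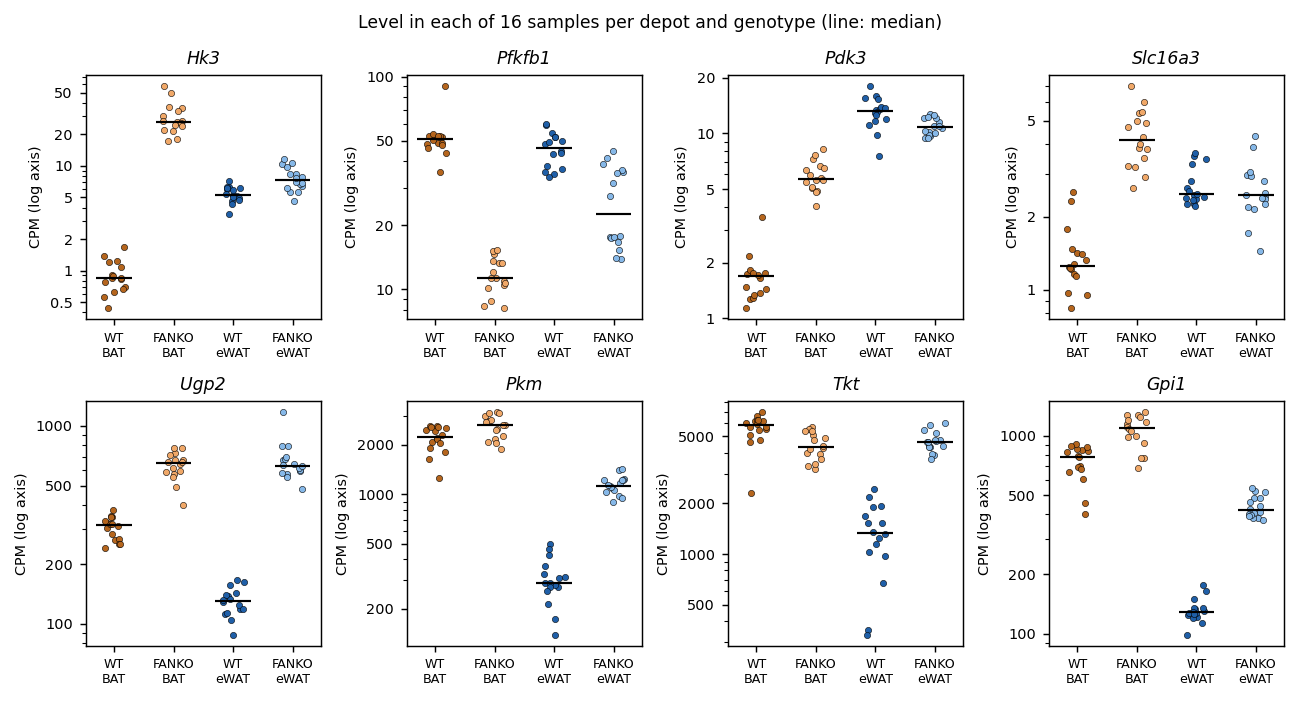
CPM of 8 members (log axes) in the 16 samples of each depot and genotype, one point per sample. The FANKO points lie above all WT points for Hk3, Pdk3, Slc16a3 and Ugp2 in BAT and below them for Pfkfb1, and above them for Ugp2, Pkm, Tkt and Gpi1 in eWAT.

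Phosphofructokinase commits sugar to glycolysis, and its activator fructose 2,6-bisphosphate is made and broken down by the PFKFB enzymes. Of this group of 5, 3 fell in BAT (Pfkm, Pfkfb1 and Pfkfb3), while in eWAT the 3 phosphofructokinases rose and both PFKFB genes fell. Over all genes, 33.9% were lower in BAT, and in eWAT 27.6% were higher and 22.8% lower. Pfkfb1, the isoform best known from liver, lay at 35.7, 50.9 and 90.8 CPM in WT BAT and 8.15, 11.3 and 15.4 CPM in FANKO BAT. It fell by 2.14 ± 0.09 on the log2 scale (SE; adjusted p = 7.54e-31), the largest fall among the members in BAT, with no overlap. In eWAT its levels were 33.7, 46.4 and 60.0 CPM in WT and 13.9, 22.6 and 44.8 CPM in FANKO, and the fall was 0.90 ± 0.08 (SE; adjusted p = 1.52e-14). Pfkfb3, the isoform with the strongest kinase activity, fell by 1.55 ± 0.12 in BAT (adjusted p = 1.62e-17) and by 1.17 ± 0.12 in eWAT (adjusted p = 1.72e-12). The depots did not differ in the fall of Pfkfb3 at the threshold (difference -0.38, adjusted p = 0.039). Pfkl, the liver-type phosphofructokinase, rose in eWAT (log2 fold change 1.70, adjusted p = 9.64e-24) and missed the threshold in BAT (-0.23, adjusted p = 0.0185). Its share of the 3 phosphofructokinases by CPM per kb went from a median of 56.5% (50.5 to 62.2%) in WT eWAT to 71.3% (66.4 to 75.6%) in FANKO eWAT. Pfkp, the platelet type, lay at 134, 207 and 322 CPM in WT BAT and 178, 206 and 262 CPM in FANKO BAT, without a called difference (log2 fold change 0.00, adjusted p = 0.973), and rose in eWAT (0.87, adjusted p = 1.29e-15).

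In lower glycolysis, from aldolase to pyruvate kinase, 7 of 9 members rose in eWAT and none fell, and in BAT 4 fell (Aldoc, Tpi1, Pgk1 and Pgam1) and none rose. That is 77.8% higher in eWAT beside 27.6% of all genes, and 44.4% lower in BAT beside 33.9%. Pkm, the pyruvate kinase of most tissues outside liver, lay at 139, 286 and 499 CPM in WT eWAT and 891, 1127 and 1429 CPM in FANKO eWAT. The samples did not overlap, and the rise was 3.77-fold (log2 fold change 1.92 ± 0.11, SE; adjusted p = 2.34e-22). In BAT, Pkm lay at 1261, 2244 and 2602 CPM in WT and 1890.2, 2650 and 3170 CPM in FANKO, without a call (0.24 ± 0.11, SE; adjusted p = 0.0369). Pkm was called higher in FANKO BAT with depots fitted apart (0.28, edgeR adjusted p = 0.00517) and without replicate 4 (0.26, adjusted p = 0.00729). The same held with library size alone (0.83, adjusted p = 1.57e-11). Aldoa rose in eWAT by a log2 of 1.72 (adjusted p = 3.48e-22) and Eno1, the common enolase, by 1.30, while in BAT the values were 0.01 (adjusted p = 0.939) and -0.17 (adjusted p = 0.152). Gapdh, the NAD+-dependent dehydrogenase often used as a reference gene, rose in eWAT (log2 fold change 1.11, adjusted p = 2.21e-12) and had a value of 0.11 in BAT (adjusted p = 0.412). Pgk1 and Pgam1, phosphoglycerate kinase and mutase, had values of -0.59 and -0.75 in BAT and 1.11 and 0.92 in eWAT, all called. Tpi1, triose phosphate isomerase, fell by 0.41 in BAT and had 0.22 in eWAT (adjusted p = 0.0255). Aldoc, the brain-type aldolase, fell by 0.55 in BAT and rose by 0.85 in eWAT. Gapdh, Pgk1, Pgam1, Ldha and Aldoa have annotated pseudogenes named after them, and how reads that fit several places were counted is not given in the sources used here, so their levels are uncertain. Exons of Pfkp, Gpi1, Pdha1, G6pdx, Gys1, Hk1 and Pfkfb1 overlap genes on the opposite strand by 123 to 748 bases, and those of some other members by less. Whether counting used strand is likewise not given. Pkm and Pfkm overlap genes on their own strand by 767 and 341 bases.

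Lactate dehydrogenase turns pyruvate into lactate and back, and the monocarboxylate transporters carry lactate across the membrane. Slc16a3, the exporter MCT4, lay at 0.836, 1.26 and 2.53 CPM in WT BAT and 2.64, 4.16 and 6.998 CPM in FANKO BAT. It rose by a log2 of 1.64 ± 0.13 (SE; adjusted p = 6.01e-18) with no overlap, and in eWAT, at 2.21, 2.48 and 3.68 CPM in WT and 1.45, 2.46 and 4.32 CPM in FANKO, no difference was called (-0.06, adjusted p = 0.683). Slc16a1, the transporter MCT1, remained at least 95.5% of the pair by CPM per kb in every sample. It fell in BAT (log2 fold change -0.49, adjusted p = 2.67e-08), a direction that turned with library size alone (0.09, adjusted p = 0.255), and rose in eWAT (0.62, adjusted p = 1.44e-10). Ldhb, the heart-type subunit, fell in BAT by 1.41 and rose in eWAT by 1.03, and Ldha, the muscle-type subunit that prevails in glycolytic cells, fell by 0.55 and rose by 0.52. The share of Ldhb in the pair went from a median of 34.8% (29.4 to 43.4%) in WT BAT to 22.9% (19.1 to 25.6%) in FANKO BAT, with no overlap, and from 11.8% to 15.2% in eWAT.

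All 6 genes of the pyruvate dehydrogenase group were called in both depots, but in opposite directions. Over all genes, 67.0% were called in BAT and 50.3% in eWAT. Pdha1 and Pdhb, the E1 subunits, and Dlat, the E2 subunit, fell in BAT (log2 fold changes -1.30, -0.78 and -0.78) and rose in eWAT (1.14, 1.55 and 1.33). Pdk1 and Pdk2, kinases that shut the complex down, moved with them, at -1.30 and -1.27 in BAT and 1.14 and 0.65 in eWAT. Pdk3, a kinase of the same family, went against them. Its levels were 1.13, 1.69 and 3.51 CPM in WT BAT and 4.02, 5.69 and 8.25 CPM in FANKO BAT, a rise of 1.82 ± 0.11 on the log2 scale (SE; adjusted p = 2.25e-22) with no overlap. In eWAT, where WT held 7.51, 13.2 and 18.1 CPM and FANKO 9.46, 10.8 and 12.75 CPM, Pdk3 fell by 0.27 ± 0.09 (SE; adjusted p = 0.00569), a call lost without replicate 1 (adjusted p = 0.0261) or 2 (adjusted p = 0.157).

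The pentose phosphate genes rose together in eWAT, where all 4 were called higher, beside 27.6% of all genes. Tkt, the transketolase that links the pathway back to glycolysis, lay at 333, 1339 and 2429 CPM in WT eWAT and 3671, 4596 and 6011 CPM in FANKO eWAT. It rose 3.52-fold (log2 fold change 1.81 ± 0.16, SE; adjusted p = 6.24e-15), and every FANKO sample was above every WT sample. In BAT, Tkt lay at 2292, 5809 and 6962 CPM in WT and 3216, 4295 and 5702 CPM in FANKO, and its log2 fold change of -0.33 ± 0.16 (SE) missed the threshold (adjusted p = 0.0482). Taldo1, the transaldolase, rose in eWAT by 1.28 and fell in BAT by 0.42. G6pdx and Pgd, the enzymes that make NADPH, rose in eWAT by 0.78 and 1.26, and in BAT Pgd rose by 0.50 (adjusted p = 0.000835) and G6pdx had 0.05 (adjusted p = 0.642).

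Among the 8 glycogen genes, Ugp2, which makes the UDP-glucose that glycogen is built from, rose in both depots and rose the most of all members in eWAT. Its levels were 88.2, 130.4 and 166.9 CPM in WT eWAT and 478, 629 and 1177 CPM in FANKO eWAT, a 5.16-fold rise (log2 fold change 2.37 ± 0.09, SE; adjusted p = 2.55e-31). In BAT they were 243, 314 and 378 CPM in WT and 399, 649 and 772 CPM in FANKO, a 2.06-fold rise (1.04 ± 0.08, SE; adjusted p = 1.85e-17). Neither depot had an overlap. Gyg, the glycogenin that starts the polymer, also rose in both (0.49 in BAT and 1.72 in eWAT), and Gys1, the synthase, and Gbe1, the branching enzyme, fell in BAT (-0.97 and -1.11) and rose in eWAT (0.28 and 1.28). Ppp1r3c, a subunit that brings protein phosphatase 1 to glycogen and so favours synthesis, fell by 1.48 in BAT (adjusted p = 1.96e-17) and rose by 0.77 in eWAT (adjusted p = 9.89e-08). On the side of breakdown, Pygl, the liver-type phosphorylase, fell by 0.49 in BAT and rose by 1.72 in eWAT, and Pygb, the brain type, fell in both (-0.75, adjusted p = 1.58e-18, and -0.33, adjusted p = 7.95e-07). Phosphorylase in eWAT thus changed its leading form: the share of Pygb among the 3 phosphorylases by CPM per kb went from a median of 68.6% (57.4 to 78.6%) in WT to 34.5% (26.2 to 40.3%) in FANKO, and that of Pygl from 30.6% (19.9 to 41.8%) to 65.1% (59.1 to 73.4%). The ranges of the shares did not overlap for either gene.

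**Figure D3:**
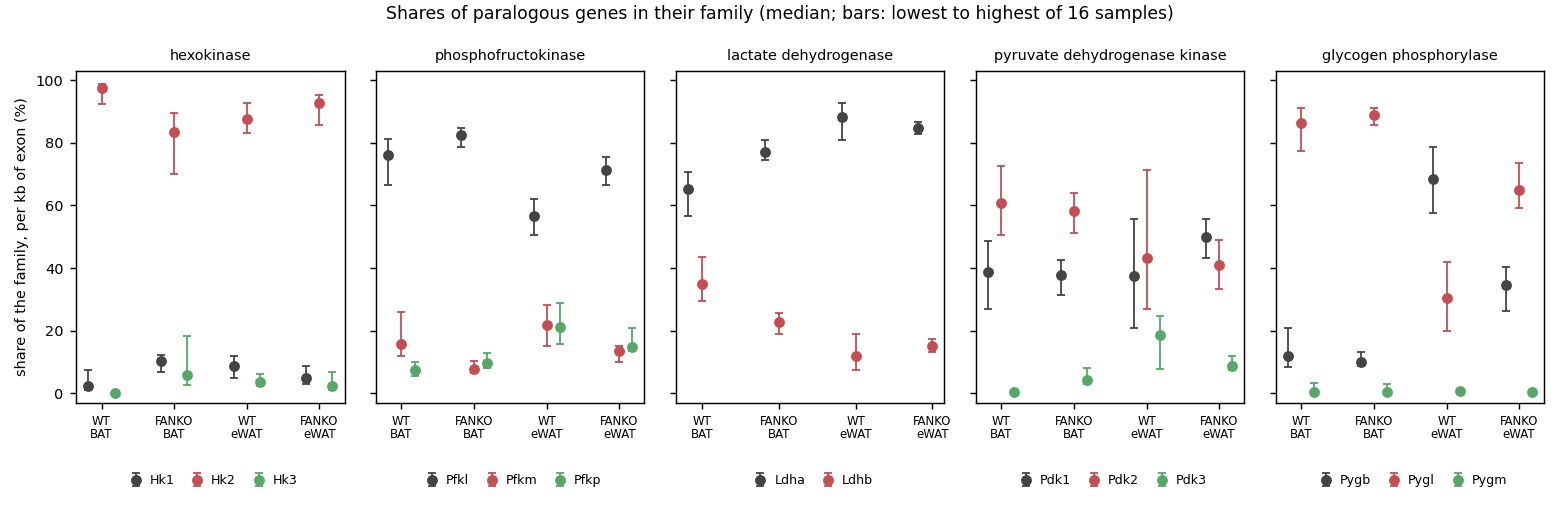
Share (%, by CPM per kb) of each gene in its family for every depot and genotype, with points at the median and bars from the lowest to the highest of 16 samples. Pygb leads the phosphorylases in WT eWAT with 68.6% and Pygl in FANKO eWAT with 65.1%.

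Across all 40 members, the 16 FANKO samples lay wholly above the 16 WT samples for 5 members in BAT (Hk1, Hk3, Slc16a3, Pdk3 and Ugp2) and wholly below for 11 (Pfkm, Pgam1, Ldhb, Pfkfb1, Pfkfb3, Pdha1, Dlat, Pdk2, Gys1, Pygb and Gbe1), against 22.6% of all genes without overlap in either direction. In eWAT 19 members lay wholly above, none below, and 21 overlapped, against 5.9% of all genes. The 19 were Gpi1, Pfkl, Pfkm, Aldoa, Gapdh, Pgk1, Pgam1, Eno1, Pkm, Ldhb, Pdha1, Pdhb, Dlat, Taldo1, Tkt, Pygl, Ugp2, Gbe1 and Gyg.

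Time of day was tested with a 24-h cosine in each depot and genotype. In WT BAT, 7 members were rhythmic (Hk2, Pfkp, Slc16a1, Pfkfb3, Gys1, Pygb and Ppp1r3c), against 13.9% of all genes, and in FANKO BAT only Ppp1r3c was, against 2.84%. In eWAT, 5 were rhythmic in WT (Pfkp, Slc16a1, Pfkfb3, Pdk2 and Ppp1r3c), against 9.38%, and 5 in FANKO (Hk2, Slc16a1, Pfkfb1, Pfkfb3 and Ppp1r3c), against 6.77%. A loss of call in one genotype is no difference between genotypes, so the rhythms were also compared directly. The difference was called for 1 member in BAT, Pygb, against 2.76% of all genes, and for 3 in eWAT, Slc16a1, Pfkfb1 and Pfkfb3, against 1.15%. Rhythm counts leaned on single replicates. WT eWAT had 13 rhythmic members without its ZT 18 replicate 4, an alternative chosen after seeing the data (2309 of 20683 genes). It had 3 without all samples numbered 3 (768 of 20329 genes) and 19 without those numbered 4 (1955 of 20672 genes). The differences in eWAT fell to 1 without number 1 (76 of 20201 genes) and to 1 without number 2 (31 of 20104 genes). With all samples, 1899 of 20249 genes were rhythmic in WT eWAT, and 232 differed in rhythm between genotypes in eWAT. With 4 time points per cycle, times of the peak are coarse.

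Ppp1r3c kept its rhythm in all 4 conditions, with the highest mean at ZT 18 and the lowest at ZT 6. In WT BAT the samples were 136, 133, 130 and 194 CPM at ZT 6 and 439, 400, 366 and 399 CPM at ZT 18, which do not overlap, and in FANKO BAT 48.6, 37.7, 69.2 and 34.1 CPM against 226, 154, 171 and 141 CPM. The log2 distance of the highest from the lowest time-point mean was 1.45 ± 0.15 (SE) for WT and 1.90 ± 0.27 for FANKO in BAT, and 1.29 ± 0.32 for WT and 2.07 ± 0.21 for FANKO in eWAT. The rhythm test gave adjusted p values of 2.67e-07, 1.59e-07, 3.17e-05 and 1.3e-08, and no difference between genotypes was called (0.441 in BAT and 0.518 in eWAT). In FANKO BAT, the curve thus ran lower at every time point with the highest and lowest times kept.

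Pygb in WT BAT was higher by day. The 4 samples were 191, 166, 191 and 185 CPM at ZT 6 and 113, 126, 121 and 113 CPM at ZT 18, without overlap (adjusted p of the rhythm 4.09e-06). In FANKO BAT they were 79.7, 85.6, 87.8 and 84.4 CPM at ZT 6 and 98.2, 78.8, 95.0 and 90.0 CPM at ZT 18, which overlap. The distance between time points was 0.63 ± 0.06 (SE) in WT and 0.18 ± 0.11 in FANKO, and the rhythms differed (adjusted p = 0.00364). This call was lost in several alternatives, among them leaving out any 1 replicate number.

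Slc16a1 had a different time course in FANKO eWAT. In WT eWAT the samples were 102.7, 62.7, 110 and 83.1 CPM at ZT 6, 77.1, 71.7, 75.7 and 90.3 CPM at ZT 10, 190, 144, 194 and 119 CPM at ZT 18 and 203, 176, 219 and 172 CPM at ZT 22, so all night samples exceeded all day samples. In FANKO eWAT they were 217, 217, 210 and 209 CPM at ZT 6, 101, 166, 158 and 168 CPM at ZT 10, 190, 154, 155 and 170 CPM at ZT 18 and 255.3, 242, 218 and 217 CPM at ZT 22, so the day values at ZT 6 lay above those of ZT 18. The distance was 1.29 ± 0.11 (SE) in WT and 0.68 ± 0.18 in FANKO, and the difference of rhythm was called (adjusted p = 0.000105), a call lost without replicate 2. In WT BAT, Slc16a1 averaged 481 ± 20.3 CPM at ZT 10 and 934 ± 102 CPM (SD, n = 4) at ZT 22, and in FANKO BAT 438 ± 30.6 and 523 ± 101 CPM; the BAT rhythms did not pass as different (adjusted p = 0.0529).

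Pfkfb1 gained a day and night difference in FANKO eWAT. WT eWAT had time-point means of 46.3 ± 6.77, 51.3 ± 6.31, 49.0 ± 10.4 and 37.4 ± 4.06 CPM (SD, n = 4) at ZT 6, 10, 18 and 22. FANKO eWAT had 39.1, 41.3, 27.5 and 35.8 CPM at ZT 6 and 36.4, 44.8, 31.6 and 35.3 CPM at ZT 10, but 13.9, 17.7, 17.8 and 17.4 CPM at ZT 18 and 14.0, 15.4, 17.6 and 16.8 CPM at ZT 22. The genotypes overlapped at ZT 6 and 10 and did not at ZT 18 and 22, where the log2 differences were -1.53 and -1.22. Rhythms differed between genotypes in eWAT (adjusted p = 0.000248), a call lost without replicate 1.

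Pfkfb3 was highest by day in WT of both depots. WT eWAT means were 612 ± 102.5, 634 ± 60.3, 276 ± 59.8 and 407 ± 169 CPM (SD, n = 4) at ZT 6, 10, 18 and 22, and FANKO eWAT means 288 ± 71.9, 427 ± 67.2, 153 ± 42.3 and 93.2 ± 7.05 CPM. The distance was 1.22 ± 0.17 (SE) in WT and 2.18 ± 0.13 in FANKO eWAT, and the rhythms differed (adjusted p = 0.00771). This call was lost without replicate 1, 2 or 3, with limma-voom, with library size alone, with time as a factor and with depots fitted apart. Its WT eWAT rhythm was lost without replicate 3. WT BAT means ran from 568 ± 164 CPM at ZT 6 to 218 ± 34.8 CPM at ZT 22, and FANKO BAT means from 154 ± 15.2 CPM at ZT 10 to 90.1 ± 8.51 CPM at ZT 22, with no called difference of rhythm (adjusted p = 0.0922). Hk2 in WT BAT rose through the sampled times from 548 ± 145 CPM at ZT 6 to 1398 ± 400.2 CPM at ZT 22 (adjusted p of the rhythm 1.29e-05). Pfkp averaged 286 ± 50.8 CPM at ZT 22 and 160 ± 29.3 CPM at ZT 10 in WT BAT, and 129 ± 21.8 and 71.8 ± 4.71 CPM in WT eWAT (adjusted p of the rhythm 4.03e-05 and 3.49e-06). Pdk2 in WT eWAT reached its highest mean at ZT 18, where the samples were 38.1, 32.9, 54.0 and 84.9 CPM. Its call (adjusted p = 0.00443) was lost without the last of these alone, and without all samples numbered 1 or 3.

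**Figure D4:**
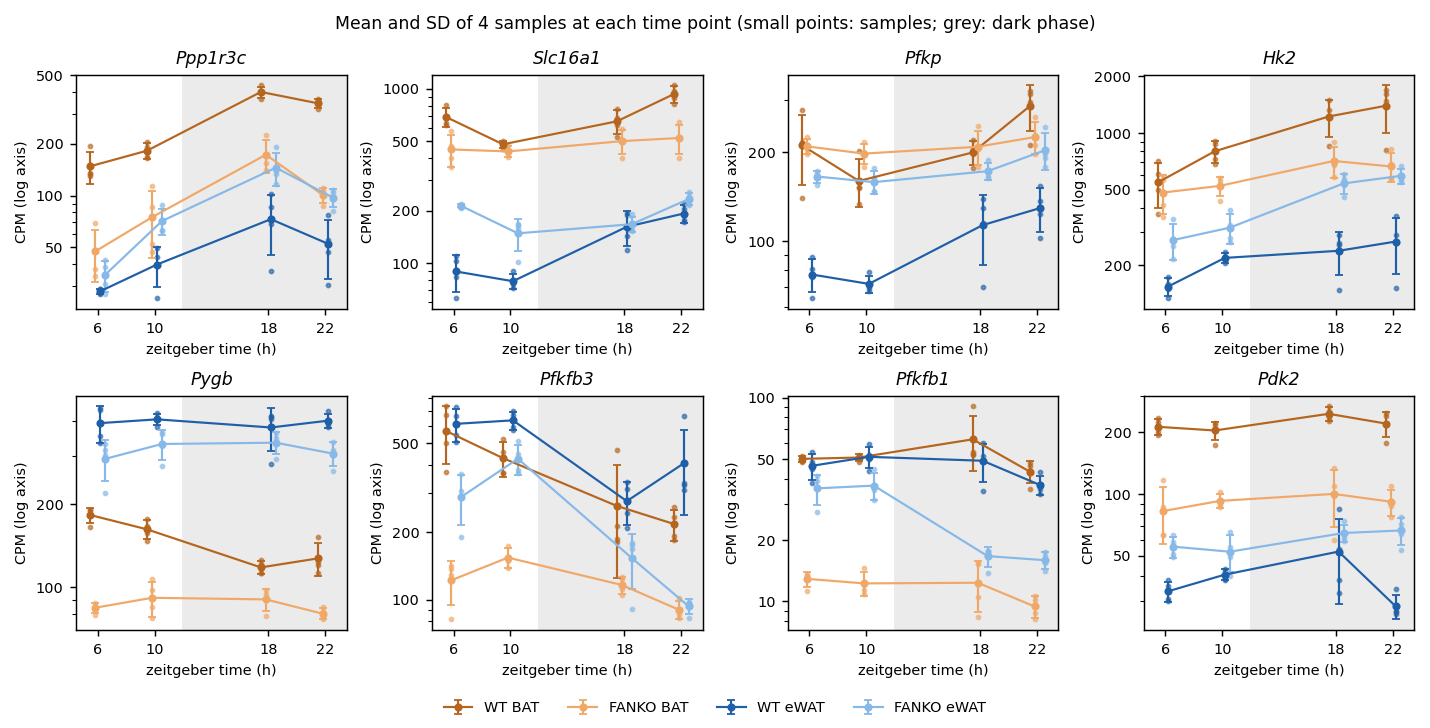
Mean CPM ± SD (n = 4; log axes, small points are samples, grey marks the dark phase) of 8 members at ZT 6, 10, 18 and 22 in each depot and genotype. Ppp1r3c is highest at ZT 18 in all 4 conditions, and Pfkfb1 in FANKO eWAT drops from 37.0 CPM at ZT 10 to 16.7 CPM at ZT 18.

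Pfkm, Eno3 and Pygm are the forms that skeletal muscle uses and are given apart, since pieces of muscle can come with dissected BAT. Pfkm, the muscle phosphofructokinase, lay at 91.0, 111 and 124 CPM in WT BAT and 32.1, 44.3 and 57.4 CPM in FANKO BAT, and at 16.8, 23.4 and 27.4 CPM in WT eWAT and 29.8, 37.6 and 40.8 CPM in FANKO eWAT. It fell by 1.35 ± 0.07 in BAT (SE; adjusted p = 4.4e-27) and rose by 0.69 ± 0.07 in eWAT (SE; adjusted p = 1.49e-13), with no overlap in either depot. Eno3, the muscle enolase, lay in BAT at 4.75, 9.46 and 21.5 CPM in WT and 6.35, 8.85 and 20.8 CPM in FANKO, and in eWAT at 3.22, 6.30 and 8.87 CPM and 5.71, 6.99 and 8.66 CPM, and no difference was called (adjusted p = 0.922 in BAT and 0.267 in eWAT). Pygm, the muscle phosphorylase, lay in BAT at 2.82, 4.18 and 21.4 CPM in the 16 WT and 1.78, 2.68 and 18.4 CPM in the 16 FANKO samples, and in eWAT at 2.32, 3.54 and 5.28 CPM and 2.30, 3.32 and 5.02 CPM, again without a call (adjusted p = 0.0811 and 0.683). In the 7 BAT libraries with Ckm over 10 CPM, the Pygm median was 12.1 CPM in WT and 15.6 CPM in FANKO, against 3.84 and 2.64 CPM in the other BAT libraries, and the Eno3 median 18.6 and 20.6 CPM against 8.86 and 8.66 CPM. Pfkm had medians of 114 and 50.2 CPM there and 111 and 42.6 CPM in the others, so its difference between genotypes was present on both sides. The 15 muscle markers summed to a median of 113 CPM in WT BAT and 22.2 CPM in FANKO BAT, with 1 of the 15 called lower. Without those 7 libraries Pygm was called lower in FANKO BAT (log2 fold change -0.58, adjusted p = 0.000138), an alternative chosen after seeing the data. Pygm was also called lower there without all samples numbered 2 (-1.08, edgeR adjusted p = 0.000158). With the summed muscle markers as a covariate, both Pygm (0.40, adjusted p = 0.00323) and Eno3 (0.52, adjusted p = 3.26e-05) were instead called higher in FANKO BAT, so no direction is given for them.

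**Figure D5:**
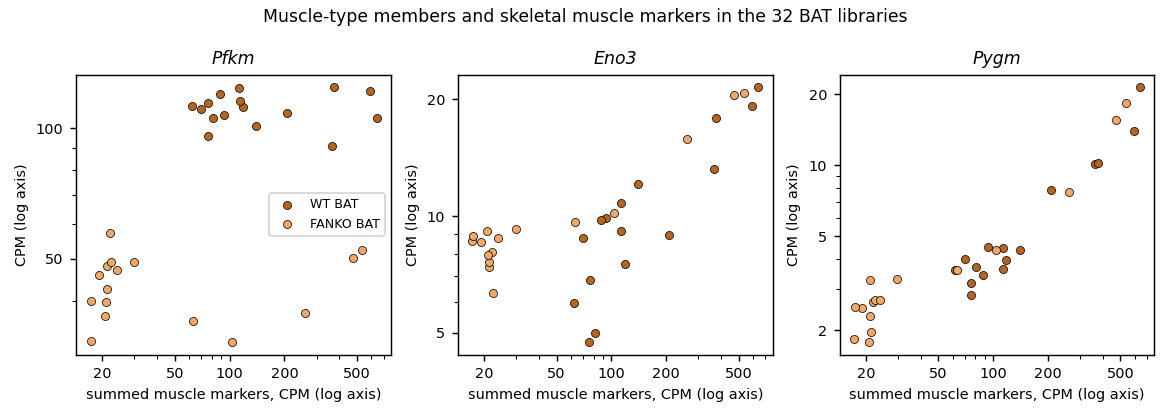
CPM of Pfkm, Eno3 and Pygm (y axes, log) against the summed CPM of 15 skeletal muscle markers (x axes, log), one point for each of the 32 BAT libraries. Pygm and Eno3 are highest in libraries with the most marker RNA, and Pfkm lies at 91.0 to 124 CPM in WT and 32.1 to 57.4 CPM in FANKO, although the marker sums of the genotypes (62.0 to 642 CPM and 17.2 to 534 CPM) meet over only part of the axis.

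Leaving out Pfkm, Eno3 and Pygm, 29 of 37 members were called in BAT (8 higher and 21 lower), beside 33.1% of all genes higher and 33.9% lower. In eWAT 35 were called (31 higher and 4 lower), beside 27.6% and 22.8%.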

How the data were processed

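RNA was sequenced from 64 samples (a strand-preserving TruSeq total RNA kit after Ribo-Zero Gold depletion, 38-bp paired-end reads, NextSeq500). Per the labels and the methods, the authors aligned reads with STAR 2.5.3a to GRCm38.p5 with GENCODE annotation and deposited raw counts per gene from featureCounts 1.5.3; whether counting used strand, and how it treated reads with several matches, is not given in the sources used here, so antisense and copied genes are uncertain. Genes were named through their Ensembl identifiers, which matched a symbol for 52489 of 52636. Aldoa is listed under 2 identifiers, of which ENSMUSG00000030695 was used. The labels do not say that samples of a group came from separate animals, and p-values measure the spread between these samples.

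Counts were analysed in edgeR 4.0.16 with TMM factors and filterByExpr over the 16 groups. One quasi-likelihood fit over all samples held a mean, a cosine and a sine of a 24-h period for each depot and genotype. P-values were adjusted by Benjamini-Hochberg over 20249 genes, with a threshold of 0.01. SEs are the log2 fold change divided by the root of F. CPM per kb divides by the merged exon length. Distances between time points are the highest minus the lowest mean log2 CPM with a prior count of 2. Code was tested on simulated data. Alternatives were DESeq2 1.42.0, limma 3.58.1 (voom), RLE factors, library size alone, other filters, time as a factor, a replicate block, separate depots, a muscle covariate, an adjusted p of 0.05 and leaving out replicates.

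The members and gene lists were chosen with earlier results of these data known. Values by sample were given for the 4 called members with the largest change in each depot, the 4 with the smallest p for a difference of rhythm in each depot, the 3 with the smallest p for rhythm in WT of each depot, and Pfkm, Eno3 and Pygm. Some results on further pathway genes are not reported here.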

Additional observations from a re-analysis of the deposited data

Results flagged for a closer look

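Of 272 groups of 4 samples screened for the 17 members with values by sample, 28 had a sample set apart from the other 3 of its depot, genotype and time point, where chance alone gives about 1 in 20 groups. For Pfkfb1 these were 90.8 CPM in WT BAT at ZT 18, 11.3 CPM in FANKO BAT at ZT 6 and 13.9 CPM in FANKO eWAT at ZT 18. For Pfkfb3 they were 468 CPM in WT BAT at ZT 18, 660.1 CPM in WT eWAT at ZT 22, and 90.4 and 82.8 CPM in FANKO eWAT at ZT 18 and 22. The high Pfkfb1 and Pfkfb3 values of WT BAT at ZT 18 came from the same library, replicate 4, which also held the low Gpi1 value of 401 CPM.

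Pdk3 had 1.29 CPM at ZT 18 and 3.51 CPM at ZT 22 in WT BAT. Slc16a3 had 2.53 CPM in WT BAT at ZT 6, 3.68 CPM in WT eWAT at ZT 10 and 3.88 CPM in FANKO eWAT at ZT 6. Pkm had 2416 CPM in WT BAT at ZT 22 and 1405 CPM in FANKO eWAT at ZT 18, and Gpi1 150.3 CPM in WT eWAT at ZT 22. Single values apart were also Slc16a1 with 101 CPM in FANKO eWAT at ZT 10, Pdk2 with 34.3 CPM in WT eWAT at ZT 22 and Ppp1r3c with 194 CPM in WT BAT at ZT 6. Pygb had 279 CPM in WT eWAT at ZT 18, in replicate 4, the library in which most members were low.

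The muscle forms were apart mainly in BAT. Pygm had 10.2 CPM at ZT 6 and 14.0 CPM at ZT 10 in WT, and 7.73, 18.4 and 15.6 CPM at ZT 6, 18 and 22 in FANKO. Eno3 had 20.8 and 20.6 CPM in FANKO BAT at ZT 18 and 22, and 3.22 CPM in WT eWAT at ZT 6. All 7 of the high BAT values came from libraries with Ckm over 10 CPM.

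The genotype effect on level differed between depots, by the test of the difference itself, for 14 of the 17 members, beside 32.2% of all genes with the higher effect in BAT and 32.1% with the lower. Most of the 17 were chosen for large changes or rhythms, so the count is no result about them. As BAT effect minus eWAT effect on the log2 scale, it was higher in BAT for Hk3 (4.47), Pdk3 (2.09) and Slc16a3 (1.70). It was lower in BAT for Ppp1r3c (-2.24), Tkt (-2.15), Pfkm (-2.03), Pdk2 (-1.92), Pkm (-1.67), Ugp2 (-1.32), Pfkfb1 (-1.24), Gpi1 (-1.21), Slc16a1 (-1.12), Pfkp (-0.87) and Pygb (-0.42). Pfkfb1 and Pygb fell in both depots and Ugp2 and Gpi1 rose in both, so for these 4 the depots differed in size and not in direction.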

How the results depend on the processing

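Counts of members with a changed level stayed within 1.5 times the count reported in every alternative run; leaving out replicates gave 28 to 31 in BAT, 34 to 36 in eWAT, 36 to 38 between depots and 36 to 37 for the difference of effects. Counts of rhythms were less stable. In WT eWAT, 5 became 9 at an adjusted p of 0.05 and 3 to 19 when replicates were left out (3 without number 3, 19 without number 4, 13 without replicate 4 of ZT 18 alone). Over all genes, 3439 of 20249 were rhythmic in WT eWAT at an adjusted p of 0.05. Without number 3 they were 768 of 20329, and without number 4 1955 of 20672. Differences of rhythm in BAT over all genes were 402 of 41091 with no filter and 432 of 20249 with time as a factor. The single difference of rhythm in BAT became 0 with no filter on low counts and 0 with time as a factor, and 0 to 2 on leaving out replicates (0 without number 1, 2 or 3; 1 without number 4, where Pygb was lost and Pfkp gained; 2 without replicate 4 of WT at ZT 18, which added Pfkfb3). The 3 in eWAT became 1 to 4, with 1 without number 1 and 1 without number 2. Other rhythm counts were 6 to 8 in WT BAT, 1 in FANKO BAT and 4 to 5 in FANKO eWAT. Direction turned for Slc16a1 (0.0904) and Eno3 (0.56) in BAT with library size alone, and for Eno3 (0.52) and Pygm (0.40) in BAT with the muscle covariate; the cause was not tested. The BAT split of 8 higher and 22 lower became 16 and 11 with library size alone, which moved the median log2 fold change of all genes to 0.58 in BAT, -0.27 in eWAT, -0.86 between depots and 0.88 for the difference of effects. Depth limits the low members, since Hk3, Slc16a3 and Pdk3 had medians of 0.848, 1.26 and 1.69 CPM in WT BAT, in libraries of at least 8299625 counts. Aldoc was low as well, with medians of 1.25 CPM in WT eWAT and 1.36 CPM in FANKO BAT.

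The labels do not say whether shared replicate numbers pair the samples, and the main tests took the samples as unpaired. Deviations of WT and FANKO samples with the same number correlated at -0.13 to 0.22 (median 0.05, 6 of 32 pairs over 0.1). With different numbers the median was -0.02, with 6 of 96 over 0.1. Those of BAT and eWAT samples correlated at -0.13 to 0.31 (median 0.05, 10 of 32 over 0.1). With different numbers the median was -0.02, with 5 of 96 over 0.1. Correlations over 0.1 were thus more frequent with shared numbers, and the values do not settle whether samples were paired. With the replicate block, the level counts were 30 and 36, the rhythm counts 7 and 1 in BAT and 6 and 5 in eWAT, the differences of rhythm 1 and 3, the depot count 38 and the difference of effects 37. A block of 32 animals assumed from the labels gave 39 and 37.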

Other observations

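Of 53 further genes of these pathways, listed with earlier results known, 52 could be tested. In BAT 4 were higher and 30 lower in FANKO, beside 33.1% and 33.9% of all genes, with a median log2 fold change of -0.46. In eWAT 20 were higher and 13 lower, beside 27.6% and 22.8%, with a median of 0.10. Fbp1, a fructose bisphosphatase of gluconeogenesis, fell in BAT. It lay at 0.702, 1.33 and 4.80 CPM (lowest, median and highest of 16) in WT BAT and 0 to 0.437 CPM in FANKO BAT, with no overlap (log2 fold change -3.34 ± 0.54, SE; edgeR adjusted p = 1.42e-07). Pgk2, the phosphoglycerate kinase of sperm, had a fitted log2 fold change of -3.65 ± 1.205 in eWAT (SE; edgeR adjusted p = 0.00974), but its medians were 0.0836 CPM in WT and 0 CPM in FANKO, too close to 0 for a fold.

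The rhythm of these genes was called for 16 in WT BAT (13.9% of all genes), 4 in FANKO BAT (Tigar, Pdk4, Phka2 and Ppp1r3g; 2.84% of all genes) and 8 in WT eWAT (9.38%).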
